A study of Anolis carolinensis with 15 samples.

Results

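The genes of TGF-beta and BMP signalling were followed in fibroblast-gated cells of regenerating green anole (*Anolis carolinensis*) tails. Members were taken by symbol: the TGF-beta, BMP, GDF, activin and inhibin genes, the latent TGF-beta binding proteins, the receptors, the SMADs, secreted antagonists and follistatin-like genes, and 10 further genes given by name (*nog*, *chrd*, *chrdl1*, *chrdl2*, *fst*, *bambi*, *bmper*, *id1*, *id2* and *id3*). This gave 62 of the 26523 genes in the count tables. The rule reads symbols and no measured value, though it was written with earlier results of these data known. By role they were 20 ligand genes, 4 latent TGF-beta binding proteins, 11 type I and type II receptors, 2 accessory receptors, 8 SMADs, 9 secreted antagonists, 3 follistatin-like genes, 3 ID genes and 2 genes that match by symbol only: *bmp1*, a procollagen protease, and *bmp2k*, a kinase.

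Whole tails were dissociated and fixed, and cells were stained in suspension by hybridization chain reaction FISH, which amplifies a fluorescent signal on bound RNA probes. Cells positive for *col3a1*, a fibrillar collagen of connective tissue, were then sorted for bulk RNA-seq of ribosome-depleted RNA. In the time course, tails of animals with no treatment entry were collected 7, 14 and 28 days after amputation (D7, D14 and D28). In the treatment experiment, tails were collected at day 21 from animals injected with the vehicle PBS, or with zoledronic acid (ZA), a bisphosphonate that inhibits osteoclasts. Per the labels, ZA injections began 1 week before amputation and went on 3 times a week until collection. Each of the 5 groups held 3 libraries, named A, B and C, which makes 15 in all. No genotype or transgene is named for any group. By the study's methods the animals were 9 to 12 months old and of both sexes. Its gate for the treatment experiment also left out cells positive for the epidermal keratin *krt5*. For the time course the study states the aim of sorting *krt5*-negative cells but then names the profiled cells *krt5*-positive. Whether that gate left out *krt5* is therefore unclear. The study calls its replicates biological and names 3 tails for each condition of the treatment experiment, but no label ties a library to an animal. If libraries share animals, p-values measure a spread that is in part technical.

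Ligands of this family are secreted dimers. TGF-beta leaves the cell locked in a latent complex that latent TGF-beta binding proteins tether to the matrix, while BMPs are held in check by secreted binding proteins such as noggin and chordin. A ligand joins type II and type I receptor kinases. TGF-beta and activin receptors then act mainly through SMAD2 and SMAD3, BMP receptors act through SMAD1, SMAD5 and SMAD9, and both arms share SMAD4. SMAD6, SMAD7 and the kinase-less decoy receptor BAMBI are induced by the pathway and damp it, and the ID genes are direct BMP targets in mammals. In regenerating lizard tails TGF-beta family signals are known from wound healing and from the formation of the cartilage tube.

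Library totals ranged from 4237978 counts (ZA A) to 12699682 counts (D14 A), and the members together took 0.299% to 0.474% of a library. Over genes, Spearman correlations within a group lay between 0.83 and 0.97, except that D28 A correlated at 0.75 with both D28 B and D28 C. PBS A carries no treatment entry and ZA A carries the entry PBS, against their titles, and the titles were followed. Fibroblast markers were present in all libraries: *col3a1*, the gene sorted on, ran from 1731 to 22144 CPM, the count scaled to the effective size of the library. Of markers outside the gate, *col1a1* ran from 3253 to 52951 CPM, *pdgfra* from 31.5 to 210 and *lum* from 3.93 to 45. Summed over 10 markers, the fibroblast level was 18725 to 21491 CPM at D7, 7481 to 8899 at D14 and 25579 to 95731 at D28, with D28 A at the top. Markers of other cells were present too. The 11 cartilage markers summed to 602 to 1995 CPM at D7, 820 to 992 at D14, 8981 to 11592 at D28, 5076 to 36646 in PBS and 799 to 1749 in ZA. The 12 epidermis markers summed to 642 to 1154 CPM at D7, 4066 to 5824 at D14, 1097 to 6401 at D28, 2173 to 5760 in PBS and 5311 to 8395 in ZA. No marker of these lists was at 0 in every library, and *krt5*, *prrx1* and *ctsk*, the study's osteoclast marker, were not listed by those symbols. In bulk samples of this kind, fewer cells of a type and less RNA per cell cannot be told apart.

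Each timepoint was set against the mean of the other 2, and ZA against PBS, with edgeR's quasi-likelihood test over all genes. A gene was called at a Benjamini-Hochberg adjusted p under 0.05, and unless another tool or a left-out library is named, a call is of this fit. Of the 62 members, 60 passed the filter of at least 10 counts in at least 3 libraries in the time course and 58 in the treatment experiment. The joint ligand *gdf5* and *fstl5* passed in neither, and the receptor *acvr1c* and *fstl4* did not pass in the treatment experiment. A total of 13 members were called in at least 1 comparison, in 15 member and comparison pairs, and 47 tested members were never called. The heatmap of members shows the main features. Some genes, such as *tgfb1*, *tgfb2*, *inhba*, *tgfbr2* and *bambi*, were high at D7, while most other ligand and receptor genes were not called higher. Many members were at lower levels at D14, and PBS was not cleanly separated from ZA.

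**Figure D1:**
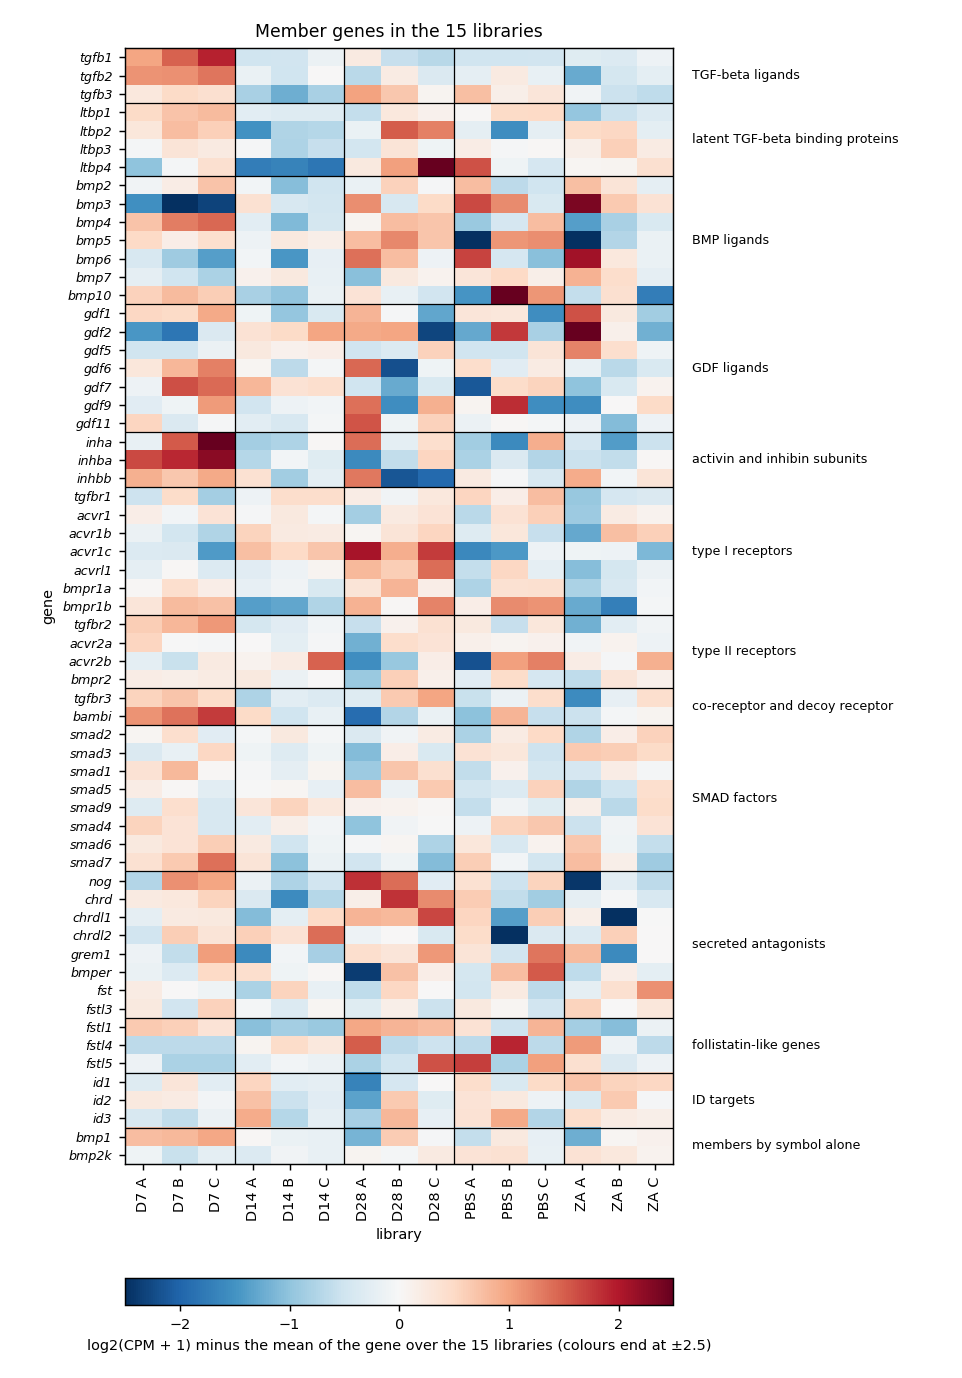
Level of the members shown (rows, ordered by role) in each of the 15 libraries (columns, by group), as log2(CPM + 1) relative to the gene's own mean over libraries. *tgfb1*, *tgfb2*, *inhba* and *bambi* stand high in all 3 D7 libraries, and *bmp3* stands low there.

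At D7, 8 of 60 members tested (13.3%) were called higher, where 5.62% of all 21326 genes tested were, and 1 (1.67%) was called lower, where 4.11% of all genes were. The 8 were the ligands *tgfb1*, *tgfb2*, *bmp4* and *inhba*, the matrix carrier *ltbp1*, the receptor *tgfbr2*, and the inhibitors *smad7* and *bambi*. The 1 called lower was *bmp3*. The median log2 fold change of the members was 0.22, against -0.08 for all genes, and 39 of the 60 had a fitted change above 0. At an unadjusted p under 0.05 there were 16 of 60 members higher, where 13.4% of all genes were, and 5 lower, where 13.6% were. With an absolute log2 fold change over 2 also required, the calls were *inhba* (0.9% of all genes higher) and *bmp3* (2.53% lower).

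The D7 count depended on single libraries. Without D28 A, the library that correlated least with its group, 16 members were called higher (27.1%) where 12.3% of all genes were, and 3 lower (5.08%) where 11% were. The 16 held all 8 named above, with *tgfb3*, *bmp1*, *bmp10*, *fstl1*, *gdf1*, *gdf7*, *inha* and *inhbb* besides, and the 3 were *bmp3*, *acvr1b* and *acvr1c*. Without D7 C only *tgfb1* (1.67% of members) was called higher where 1.09% of all genes were, and without D7 B the calls were *tgfb1*, *tgfb2* and *inhba* (5%) where 1.59% were. No member was called lower in either fit, where 0.42% and 0.628% of all genes were. Leaving out D14 A left 5 members higher (*tgfb1*, *tgfb2*, *inhba*, *bambi* and *smad7*) where 3.05% of all genes were, and leaving out D14 B or D14 C left 4 (these without *smad7*) where 2.64% and 3.48% were, with *bmp3* still lower. Without D28 B, 9 were called higher (6.64% of all genes) and 2 lower (4.25%), the additional ones being *bmp1* and *acvr1c*. Without D28 C, *ltbp1* and *smad7* were no longer called, and without D7 A *ltbp1* and *tgfbr2* were replaced by *gdf7* and *inha*.

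Of the 3 TGF-beta ligands, *tgfb1* and *tgfb2* were highest at D7. *tgfb1* encodes the form released in wounds and by platelets. Its level was 228, 320 and 435 CPM in the D7 libraries, 80.5, 81.5 and 103 at D14, and 134, 76.7 and 70 at D28, with PBS at 81.0, 80.0 and 81.4 and ZA at 92.4, 90 and 105. Every D7 library was above every other library of the time course. The D7 difference was 1.87 on the log2 scale (SE 0.28, edgeR adjusted p = 0.00388), and it was called with each of the 9 libraries left out in turn, at 1.60 to 2.08.

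*tgfb2*, a ligand of mesenchyme and of epithelial transitions, lies on chromosome 1 at 35003830 to 35110080 (rAnoCar3.1.pri, the assembly of all positions here), where its span overlaps LOC134296688. It measured 384, 388 and 448 CPM at D7, 157, 124 and 178 at D14, and 110, 204 and 137 at D28. PBS libraries held 150, 206 and 155 CPM and ZA libraries 73.3, 129 and 149. The D7 libraries again lay above all others of the time course. The log2 difference was 1.44 (SE 0.25, edgeR adjusted p = 0.00683), and without D7 C the adjusted p was 0.0545.

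*tgfb3* had another course. This ligand (chromosome 1, 330495153 to 330525982) was at 108, 127 and 120 CPM at D7, 50.9, 38.4 and 50.8 at D14, and 182, 144 and 95.4 at D28. Its level was 152, 99.8 and 112 CPM in PBS and 85.4, 62.1 and 58.1 in ZA. It was therefore lowest at D14, below every D7 and D28 library, and its ZA libraries lay below its PBS libraries. The D14 difference was -1.46 (SE 0.27, edgeR adjusted p = 0.0265), and the D7 difference of 0.56 (SE 0.25, adjusted p = 0.171) was not called.

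Of the 4 latent TGF-beta binding proteins, *ltbp1* was called at D7 and *ltbp4* at D28. *ltbp1* (chromosome 1, 50527145 to 50739697), which tethers latent TGF-beta to the matrix, was at 189, 222 and 233 CPM at D7, 112, 108 and 107 at D14, and 88.4, 162 and 145 at D28. The D7 difference was 0.85 (SE 0.25, edgeR adjusted p = 0.0498), just under the threshold. It was called in 2 of the 9 fits with a library left out, with an adjusted p of 0.186 without D7 C. With edgeR the adjusted p was 0.0774 against D14 alone and 0.148 against D28 alone. *ltbp2*, a microfibril protein that does not bind latent TGF-beta, measured 29.1 to 41.2 CPM at D7, 7.71 to 14.1 at D14 and 21.1 to 69.9 at D28. It had no call in the main edgeR fit. At D14 it was called lower by DESeq2 and by edgeR with DESeq2 size factors, and DESeq2 also called it higher at D28. *ltbp3* measured 138 to 296 CPM over the time course, also with no call.

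Among BMP ligands, *bmp4* was called higher and *bmp3* lower at D7. *bmp4* (chromosome 1, 362019597 to 362032481), a patterning ligand, was at 27.3, 41.0 and 46.2 CPM at D7, 13.5, 7.02 and 11.8 at D14, and 17.2, 28.5 and 26.9 at D28, with 8.16, 11.9 and 28.4 in PBS and 5.68, 8.93 and 12.3 in ZA. D7 A lay within the D28 range, so the groups overlapped. The difference was 1.25 (SE 0.32, edgeR adjusted p = 0.0308). It was called in 4 of the 9 fits with a library left out, with an adjusted p of 0.154 without D7 C, and against D28 alone the adjusted p was 0.292.

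*bmp3* (chromosome 5, 15163711 to 15215324), an atypical member that opposes other BMPs in mammalian bone, ran the other way. It was at 8.86, 3.34 and 4.71 CPM at D7, 36.3, 20.6 and 19.8 at D14, and 62.7, 20.6 and 38.6 at D28, with 89.2, 63.6 and 21 in PBS and 145, 44.2 and 35.7 in ZA. All D7 libraries were below all others. The D7 difference was -2.5 (SE 0.48, edgeR adjusted p = 0.00987), with an adjusted p of 0.0730 without D7 C. The D28 difference was 1.74 (SE 0.40, adjusted p = 0.0437), but the D28 and D14 levels overlapped and the adjusted p of D28 against D14 alone was 0.701.

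The other BMP and GDF ligands had no call with edgeR over all libraries, while DESeq2 called *bmp10* higher at D7, *bmp6* higher at D28 and *gdf7* lower at D28. *bmp2*, an inducer of bone and cartilage, measured 62.3, 75.6 and 110 CPM at D7, 63.5, 31.4 and 46.6 at D14, and 59.0, 99.6 and 65.3 at D28. *bmp7* measured 45.7, 37.3 and 30.2 CPM at D7, 57.1, 63.6 and 46.6 at D14, and 25.4, 62.8 and 56.7 at D28. The D7 differences were 0.49 (95% interval -0.17 to 1.15) for *bmp2* and -0.45 (-1.16 to 0.25) for *bmp7*. *gdf5* was close to the detection limit, at 0 to 2.32 CPM over all 15 libraries, where 3 counts equal 0.219 to 0.774 CPM.

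*inhba*, which encodes the subunit of activin A, had the largest fitted rise among the members called at D7. The gene lies on chromosome 6 at 54430988 to 54455866. Its levels were 103, 122 and 158 CPM at D7, 19.4, 30.8 and 25.9 at D14, and 10, 20.8 and 47.1 at D28, with 18.3, 25.1 and 19.0 in PBS and 21.9, 20.7 and 33.0 in ZA. The lowest D7 library was above the highest of any other group. The difference was 2.31 (SE 0.39, edgeR adjusted p = 0.00584), and without D7 C the adjusted p was 0.0541. The other subunit genes, *inha* (1.90, edgeR adjusted p = 0.0842) and *inhbb*, were not called, while DESeq2 called *inha* higher at D7.

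Of the 11 type I and type II receptors, 1 was called at D7 and 1 at D14. *tgfbr2*, the receptor that binds TGF-beta first, lies on chromosome 6 at 72626893 to 72688000 and overlaps LOC134292640. It was at 79.1, 92.0 and 110 CPM at D7, 38.0, 42.0 and 49.0 at D14, and 34.1, 55.4 and 67.1 at D28, with 60.9, 34.3 and 63.2 in PBS and 21.9, 42.7 and 48.6 in ZA. The D7 libraries were above the others. The difference was 0.99 (SE 0.27, edgeR adjusted p = 0.0388). It was called in 3 of the 9 fits with a library left out, with an adjusted p of 0.178 without D7 C. With edgeR the adjusted p was 0.0672 against D14 alone and 0.119 against D28 alone.

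Its partner *tgfbr1* was low in counts, at 4.19, 9.21 and 3.1 CPM at D7, 5.78, 9.07 and 9 at D14, and 7.44, 6 and 7.87 at D28. The D7 difference was -0.44 with a 95% interval of -1.52 to 0.64. The interval of *tgfbr2* was 0.41 to 1.58, so the intervals overlap, and a difference between these genes was not tested. The BMP receptors *bmpr1a*, *acvr1* and *bmpr2* had D7 group means of 54.1, 40.5 and 125 CPM, D14 means of 39.7, 37.7 and 114, and D28 means of 64.8, 35.8 and 115. Their D7 differences were 0.11 (95% interval -0.44 to 0.66), 0.15 (-0.53 to 0.82) and 0.14 (-0.53 to 0.80), and none was called at any time. Activin type I receptor *acvr1b*, at 20.2 to 31.2 CPM at D7 and 36.0 to 51.5 later, had a D7 difference of -0.77 (edgeR adjusted p = 0.101), while DESeq2 called it lower at D7.

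**Figure D2:**
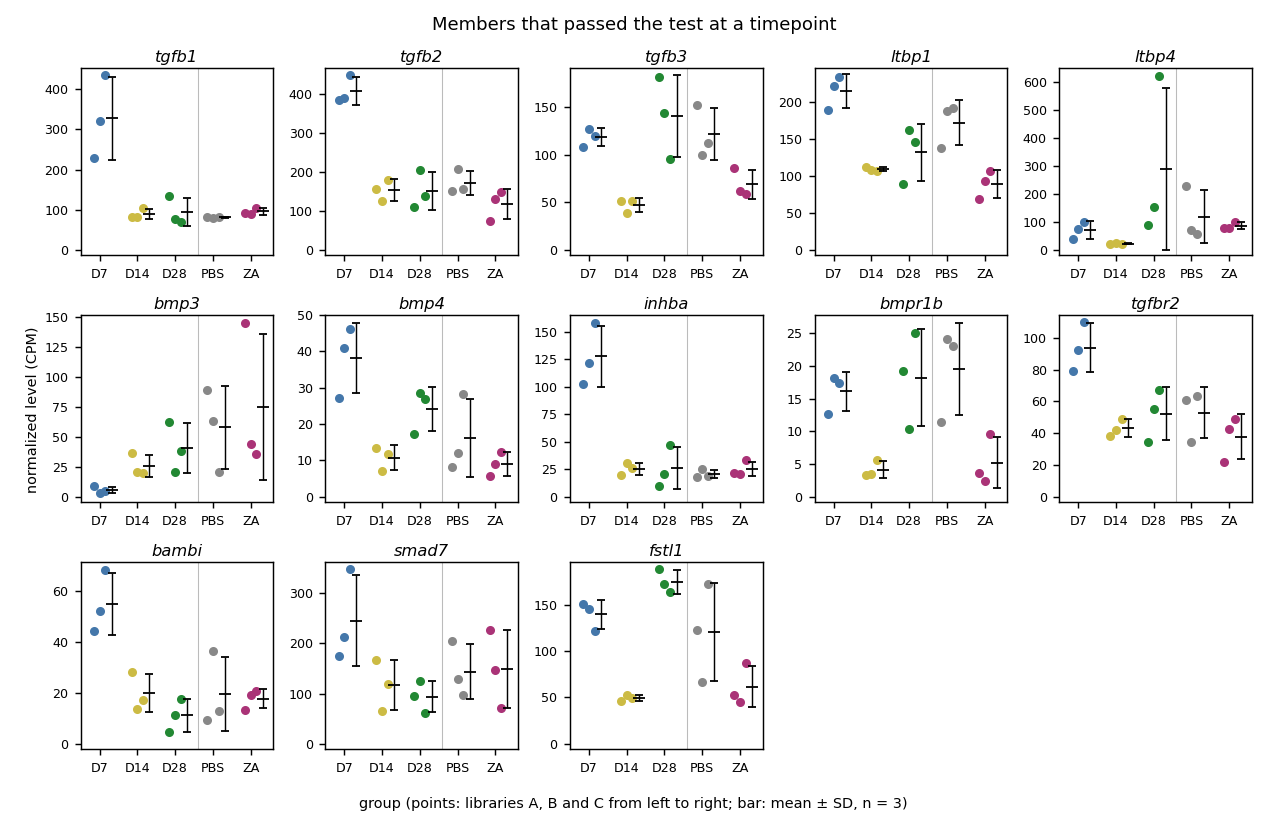
CPM of the called members (1 panel a gene, linear axis) in each library, with points for libraries and a line and bar for the group mean and SD over 3 libraries. *tgfb1* has a mean of 328 CPM at D7 and 88.3 at D14, and *bmpr1b* a mean of 4.12 CPM at D14 and 18.2 at D28.

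Of the 3 inhibitors that the pathway induces against itself, *bambi* and *smad7* were called higher at D7 and *smad6* was not. *bambi* (chromosome 6, 101022220 to 101038534) was at 44.6, 52.5 and 68.5 CPM at D7, 28.2, 13.8 and 17.4 at D14, and 4.6, 11.5 and 17.6 at D28, with 9.29, 36.5 and 13 in PBS and 13.4, 19.1 and 20.9 in ZA. D7 was above all others. The difference was 1.89 (SE 0.39, edgeR adjusted p = 0.0132). It was called in 7 of the 9 fits with a library left out, with an adjusted p of 0.0875 without D7 C. With edgeR the adjusted p was 0.0952 against D14 alone and 0.0183 against D28 alone. *smad7* (chromosome 2, 312166732 to 312225724), the inhibitory SMAD that acts on both arms, was at 175, 212 and 348 CPM at D7, 166, 65.2 and 119 at D14, and 95.8, 124 and 62.0 at D28, with 204, 128 and 97.4 in PBS and 227, 147 and 71.9 in ZA. D14 A came close to D7 A. The difference was 1.24 (SE 0.34, edgeR adjusted p = 0.0387). It was called in 4 of the 9 fits with a library left out, with 0.90 and an adjusted p of 0.229 without D7 C. With edgeR the adjusted p of *smad7* was 0.148 against D14 alone and 0.0538 against D28 alone. *smad6*, the inhibitory SMAD of the BMP arm, was at 116, 123 and 150 CPM at D7, 114, 68.1 and 89.8 at D14, and 94.7, 101 and 56.8 at D28. Its D7 libraries were above all others of the time course, the lowest by a few CPM. Its difference of 0.58 (SE 0.26, edgeR adjusted p = 0.179) was not called.

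The signalling SMADs carried no call at any time. Their fitted D7 differences were 0.10 for *smad2*, 0.31 for *smad3*, 0.37 for *smad1*, -0.23 for *smad5*, -0.28 for *smad9* and 0.41 for the shared partner *smad4*. SMAD activity is set by phosphorylation, which RNA levels do not measure.

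The ID genes, the BMP targets among the members, had no call either. *id1* was at 36.5, 57.0 and 38.0 CPM at D7, 66.9, 38.2 and 39.1 at D14, and 13.8, 34.0 and 46.2 at D28. *id2* was at 84.2, 81.7 and 67.6 CPM at D7, 118, 48.6 and 58.5 at D14, and 27.6, 113 and 57.3 at D28. *id3* was at 63.4, 54.0 and 75.7 CPM at D7, 160, 50.3 and 71.4 at D14, and 46.8, 150 and 72.2 at D28. Within each of these genes the D14 and D28 libraries spread so widely that they enclosed or nearly enclosed the D7 levels. The D7 differences were 0.18 for *id1* (95% interval -0.65 to 1), 0.15 for *id2* (-0.74 to 1.04) and -0.50 for *id3* (-1.42 to 0.42), and each interval extends in 1 direction to a change of the size called for *tgfbr2*.

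**Figure D3:**
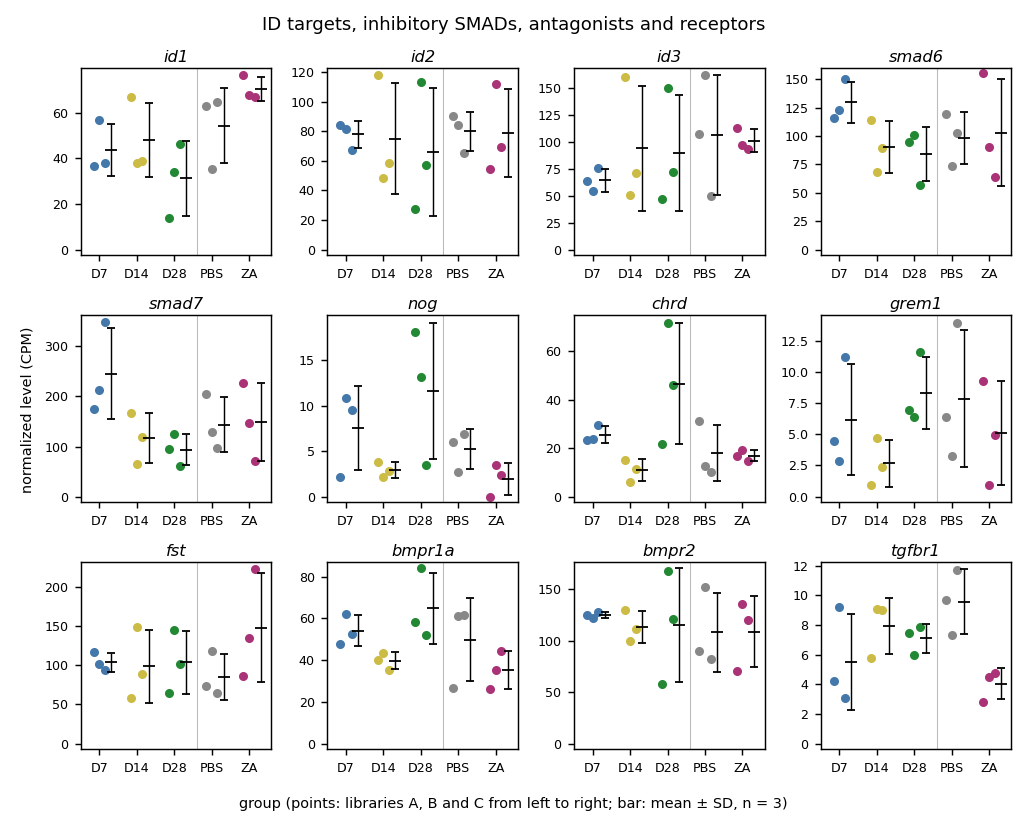
CPM in each library of the ID genes, the inhibitory SMADs, 4 secreted antagonists and 3 receptors (1 panel a gene, linear axis, points for libraries, line and bar for mean and SD over 3 libraries). *smad7* is highest at D7, with a mean of 245 CPM, while the 3 ID genes overlap between all timepoints.

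The secreted antagonists, 9 in number, had no call with edgeR over all libraries, while DESeq2 called *chrd* lower at D14 and higher at D28. *nog*, which encodes noggin, was at 2.21, 10.8 and 9.56 CPM at D7, 3.86, 2.12 and 2.84 at D14, and 18.1, 13.1 and 3.43 at D28. *chrd*, which encodes chordin, was at 23.2, 23.8 and 29.6 CPM at D7, 15.1, 6 and 11.6 at D14, and 21.9, 71.6 and 45.9 at D28. *chrd* was lower in each D14 library than in every D7 and D28 library. Its D14 difference was -1.66 (SE 0.43, edgeR adjusted p = 0.0905) and its D28 difference 1.47 (SE 0.38, adjusted p = 0.0649). *grem1*, a BMP antagonist of limb buds, had group means of 6.16, 2.67 and 8.28 CPM at D7, D14 and D28. *fst*, which encodes the activin-binding protein follistatin, had means of 104, 98.5 and 104 CPM, and its D7 difference was 0.05 (95% interval -0.68 to 0.77) beside the 2.31 of *inhba*, whose product it binds.

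**Figure D4:**
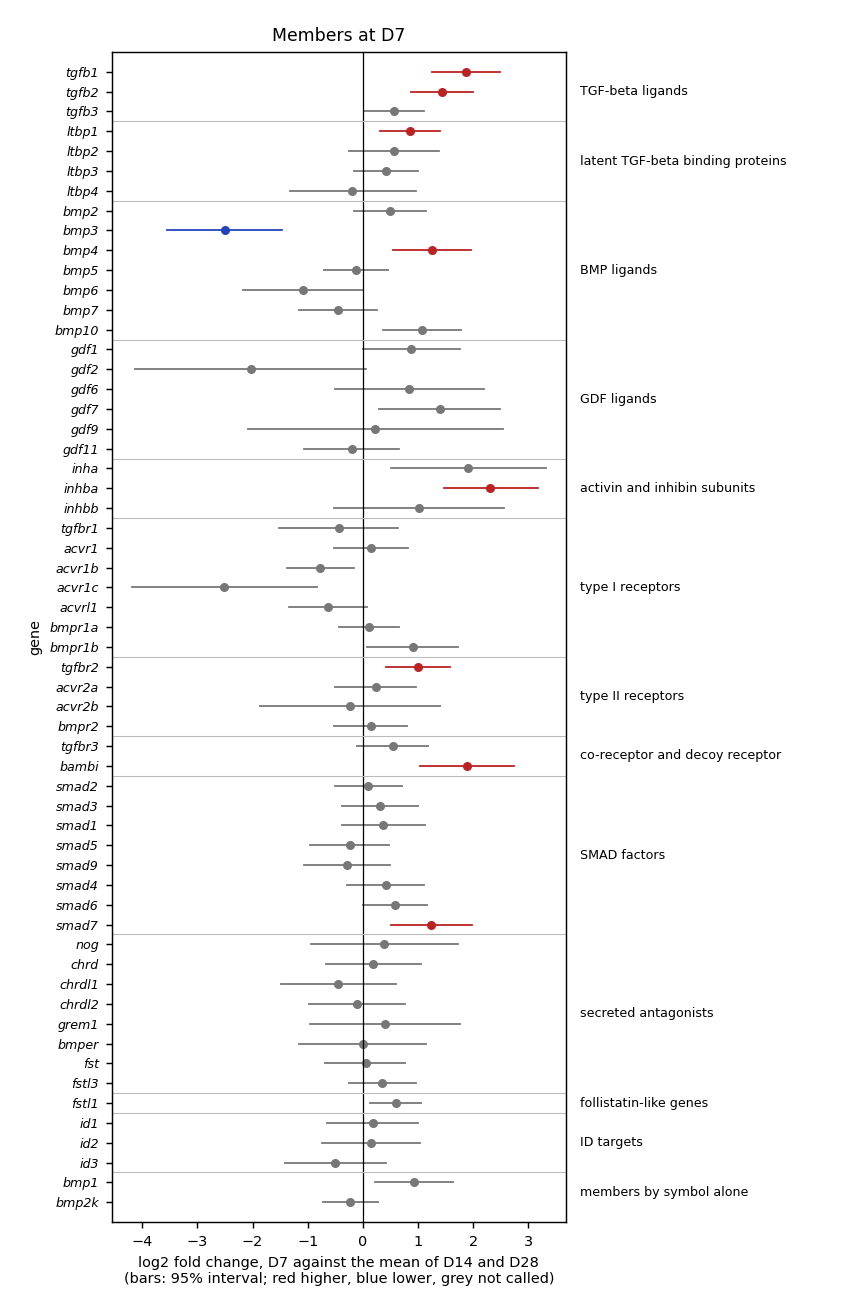
Fitted log2 fold change of D7 against the mean of D14 and D28 for the tested members, by role, with 95% intervals and called members in colour (*fstl4*, with no count in any D7 library, is among those left out). The called rises run from 0.85 (*ltbp1*) to 2.31 (*inhba*), and the 1 called fall is *bmp3* at -2.5.

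Some known response genes of both arms were called higher at D7. Of 21 TGF-beta response genes tested, 9 were called higher, 0 lower and 12 not, with a median log2 difference of 1.17 against -0.08 for all genes, of which 5.62% were called higher. Those not called included *col1a1* (-0.32), *postn* (0.17), *acta2* (0.33) and *cdkn1a* (-0.21). Among the 9 were *tgfbi*, *ccn2*, *ccn1*, *tagln*, *fn1*, *lox*, *snai2* and *tnc*, which encode matrix, contractile and mesenchymal transcription proteins. *tgfbi*, for example, was at 333, 429 and 346 CPM at D7 against 82.9 to 173 later (1.53, SE 0.25, edgeR adjusted p = 0.00527). Of 19 BMP response genes beyond the ID members, 6 were called higher (*id4*, *runx2*, *sp7*, *hey1*, *tbx2* and *atoh8*) and 2 lower (*tbx3* and *gata3*), with a median of 0.82. The share of all genes called lower at D7 was 4.11%. The osteoblast factor *sp7* was at 38.6, 37.2 and 68.0 CPM at D7 against 3.33 to 13.1 later (2.57, SE 0.33, adjusted p = 0.00194). These genes answer to other pathways too, and both lists were chosen with results of these data known, so the counts are a description and no independent evidence of direction.

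The summed osteoclast markers were highest at D7. Of 9 listed, 7 were found, and *ctsk* is not among the 7. They summed to 338 to 389 CPM at D7, 68.1 to 93.2 at D14 and 19.6 to 28.4 at D28. Whether osteoclasts or other sorted cells carried this signal was not tested. Epidermis markers, at 642 to 1154 CPM at D7, were below every D14 library, while D28 A at 1097 CPM lay within the D7 range. Endothelial markers summed to 86.9 to 149 CPM over the 9 libraries and macrophage and leukocyte markers to 50.7 to 162, with D7 inside both ranges. The part of these cells in the D7 differences was not tested.

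At D14, 0 of 60 members were called higher, where 0.638% of all genes were, and 3 (5%) were called lower, where 0.544% of all genes were. The 3 were *tgfb3*, the receptor *bmpr1b* and *fstl1*. The members as a whole sat low at this time, with a median log2 difference of -0.42 against 0.03 for all genes and a fitted value below 0 for 43 of 60. At an unadjusted p under 0.05, 18 of 60 were lower, where 6.32% of all genes were, and 1 was higher, where 7.21% were. DESeq2 called 9 lower (15%) and 0 higher, where 2.82% and 2.25% of all genes were. With the fold requirement only *bmpr1b* was called (0.159% of all genes lower, 0.464% higher). Summed fibroblast markers were lowest at D14 too, as were *col3a1* and *col1a1* singly, but not every marker was. *pdgfra* was at 99.9 to 139 CPM at D14, which overlapped the 69.7 to 166 CPM of D28. *lum* was at 3.93 to 9.73 CPM at D14, which overlapped the 4.31 to 8.06 CPM of D7. The part of these markers in the D14 differences was not tested.

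*bmpr1b* (chromosome 5, 22069857 to 22309033) encodes a type I receptor for BMPs and for GDF5 that is needed in mammals for cartilage of the digits. It was at 12.7, 18.2 and 17.4 CPM at D7, 3.26, 3.51 and 5.60 at D14, and 19.2, 10.3 and 25 at D28. All D14 libraries were below all other libraries of the time course. The difference was -2.06 (SE 0.44, edgeR adjusted p = 0.0463). It was called in 2 of the 9 fits with a library left out and its adjusted p was 0.293 without D14 B.

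*fstl1* (chromosome 2, 184944172 to 184994764), a secreted glycoprotein of mesenchyme with a follistatin domain, was at 151, 146 and 122 CPM at D7, 46.0, 52.7 and 49.6 at D14, and 189, 172 and 164 at D28. PBS held 123, 66.8 and 172 CPM and ZA 52.6, 45.0 and 86.7. The D14 group was below and the D28 group above all other libraries of the time course. The D14 difference was -1.66 (SE 0.24, edgeR adjusted p = 0.00571), with an adjusted p of 0.0812 without D14 A. The D28 difference was 1.07 (SE 0.21, adjusted p = 0.0232), and against D7 alone its adjusted p was 0.456.

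Without D28 A, 12 members (20.3%) were called lower at D14, where 3.07% of all genes were. They were *tgfb2*, *tgfb3*, *ltbp1*, *ltbp2*, *ltbp4*, *bmp4*, *inhba*, *bmpr1b*, *tgfbr2*, *tgfbr3*, *chrd* and *fstl1*. With any D14 library left out there were 0, where 0.048% to 0.0719% of all genes were, and with D7 B or D7 C left out only *fstl1* was called, where 0.113% and 0.17% were. *tgfb3* was called in 4 of the 9 such fits, with an adjusted p of 0.213 without D14 B.

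In the other genes of the pathway, chosen by role, some were also lower at D14. Of 16 genes listed for the processing, matrix binding or activation of TGF-beta, 3 were called lower at D14 (*thbs2*, *fbn1* and *fbn2*). None was called higher, and the median was -0.84. Of all genes, 0.544% were called lower and 0.638% higher at D14, with a median of 0.03. The fibrillin gene *fbn1*, whose product anchors the latent complexes, was at 109, 133 and 136 CPM at D14, 354 to 411 at D7 and 271 to 657 at D28 (-1.79, SE 0.32, edgeR adjusted p = 0.0214). Of the TGF-beta response genes, *ccn2* and *postn* were called lower, and of the BMP response genes *hey1* and *tbx2*. At D7 the processing, binding and activation genes had 1 called higher (*emilin1*) and 1 lower (*bgn*). Of 20 inhibitors and partners inside the cell, 1 was higher (*tgif2*) and 2 were lower (*nedd4l* and *usp15*) at D7. The shares of all genes called at D7 were 5.62% higher and 4.11% lower. The 10 extracellular regulators, 6 co-receptors and 2 other ligands tested had no call at D7 or D14.

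At D28, 3 of 60 members (5%) were called higher, where 1.66% of all genes were, and 0 were called lower, where 1.02% of all genes were. The 3 were *ltbp4*, *bmp3* and *fstl1*. The median log2 difference was 0.07 against 0.10 for all genes. At an unadjusted p under 0.05, 13 of 60 were higher, where 11.6% of all genes were, and 6 lower, where 8.19% were. DESeq2 called 10 higher (16.7%), where 5.32% of all genes were, and 2 lower (3.33%), where 3.77% were. With the fold requirement, *ltbp4* alone was called (0.994% of all genes higher, 0.399% lower).

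*ltbp4*, a carrier of latent TGF-beta tied to elastic fibres, was at 89.5, 154 and 619 CPM at D28, 37.3, 72.6 and 99.5 at D7, and 22.1, 22.9 and 20.8 at D14, with 228, 70.4 and 56.0 in PBS and 78.2, 79.3 and 100 in ZA. D28 C stood far above the other D28 libraries, and D28 A was within the D7 range. The difference was 2.89 (SE 0.50, edgeR adjusted p = 0.0134). Without D28 C it was 1.60 with an adjusted p of 0.0630. With edgeR it was 2.05 against D7 alone (adjusted p = 0.062) and 3.74 against D14 alone (adjusted p = 0.0243). Schwann and pigment cell markers summed to 514 CPM in D28 C, 78.1 in D28 A and 126 in D28 B, and their part in the *ltbp4* level was not tested.

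The D28 calls also rested on single libraries. Without D28 A, 6 members (10.2%) were called higher where 7.59% of all genes were (*acvrl1*, *chrd*, *fstl1*, *ltbp2*, *ltbp4* and *tgfbr3*), and 2 (3.39%) lower where 4.09% were (*inhbb* and *tgfb1*). Without D28 C or without D7 B none was called, where 0.583% and 0.732% of all genes were higher, and without D7 C or any D14 library *ltbp4* alone was, where 0.522% to 0.697% were. Among the other pathway genes, *fbn2* and *bgn* of the processing, binding and activation list and the regulator *wfikkn2* were called higher at D28, and none lower. *wfikkn2* was at 17.3 CPM in D28 A but 2.78 and 4.94 in D28 B and D28 C. At D7 and D14 it was at 0.404 to 1.26 CPM, close to the detection limit. Of all genes, 1.66% were called higher and 1.02% lower at D28. Of the TGF-beta response genes, *postn*, *col1a1* and *col1a2* were called higher and *snai2* and *tnc* lower, and of the BMP response genes *runx2* and *sp7* were called lower. Cartilage markers were at their highest of the time course at D28, and their part in these differences was not tested.

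Members without any call that are not described above are given by their ranges. Among ligands, over all 15 libraries, *bmp6* ran from 4.02 to 58.1 CPM, *gdf6*, a joint ligand, from 1.67 to 32.1, *gdf7* from 0.413 to 17.8, *gdf9*, known from oocytes, from 0 to 9.47, and *gdf11*, which patterns the axis and tail in mice, from 7.61 to 53.3. The activin receptors *acvr2a* and *acvr2b* ran from 46.8 to 159 CPM and from 0 to 11.5 CPM, the endothelial receptor *acvrl1* (ALK1) from 6.19 to 38.7, and betaglycan, the co-receptor gene *tgfbr3*, from 22.2 to 135. *acvrl1* was at 25.3, 22.1 and 38.7 CPM at D28 and 10.9 to 14.9 at D7 and D14 (1.17, SE 0.31, edgeR adjusted p = 0.0653), while the endothelial markers of D28, at 86.9 to 149 CPM, overlapped those of D7 and D14. DESeq2 called *acvrl1* higher at D28 and *tgfbr3* lower at D14.

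Signalling SMADs ran from 18.1 to 48.2 CPM (*smad2*), 196 to 658 (*smad3*), 19.6 to 66.1 (*smad1*), 8.77 to 27.3 (*smad5*), 6.54 to 16.8 (*smad9*) and 18.4 to 60.6 (*smad4*). For *smad3*, *smad1* and *smad4* the lowest library of all was D28 A. BMP-binding antagonists ran from 0.265 to 24.4 CPM (*chrdl1*), 0.719 to 27.3 (*chrdl2*) and 4.33 to 78.1 (*bmper*), and the activin-binding *fstl3* from 53.3 to 117. *fstl4* and *fstl5* stayed at or under 4.92 CPM, and *fstl4* had no count in any D7 library, where 3 counts equal 0.345 to 0.404 CPM. *bmp1*, whose protease cleaves procollagens and chordin, was at 438, 449 and 500 CPM at D7 and 114 to 397 CPM later, with a D7 difference of 0.92 (SE 0.33, edgeR adjusted p = 0.0962), and *bmp2k* ran from 56.4 to 108. DESeq2 called *bmp1* higher at D7.

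The treatment comparison asks what inhibition of osteoclasts by ZA does to these cells at day 21. With edgeR 0 of 58 members were called higher and 0 lower, where 0.00527% and 0.0369% of all 18988 genes tested were, that is 1 gene higher and 7 lower. With the fold requirement these shares were the same. DESeq2 also called 0 members in either direction. At an unadjusted p under 0.05 there were 5 of 58 members, all lower with ZA (*bmpr1b*, *ltbp1*, *fstl1*, *tgfb3* and *bmp10*). Of all genes 4.72% passed, 2.71% lower and 2.02% higher. The median log2 difference was -0.14 against 0.00 for all genes.

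In 3 members (5.17%) every ZA library was above every PBS library, where 5.3% of all genes were so, and in 5 (8.62%) every ZA library was below, where 5.27% were. Those above were *tgfb1*, *smad3* and *id1*. Those below were *tgfb2*, *tgfb3*, *ltbp1*, *tgfbr1* and *bmpr1b*. For *tgfb2* the margin was small, with 149 CPM in ZA C against 150 in PBS A. None of the 8 passed the test across all genes.

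*bmpr1b* was at 11.4, 24.1 and 23.0 CPM in PBS and 3.61, 2.39 and 9.65 in ZA. Its difference was -1.92 (SE 0.62, edgeR adjusted p = 0.892). *ltbp1* was at 137, 188 and 191 CPM in PBS and 68.9, 92.5 and 106 in ZA (-0.97, SE 0.33, adjusted p = 0.939). *tgfbr1* was at 9.71, 7.31 and 11.7 CPM in PBS and 2.84, 4.51 and 4.78 in ZA (-1.26, SE 0.60, adjusted p = 0.999). For *bmpr1b*, *tgfb3*, *ltbp1* and *fstl1* the ZA means of 5.22, 68.5, 89.2 and 61.5 CPM lay nearer to the D14 means of 4.12, 46.7, 109 and 49.4 than to the PBS means of 19.5, 121, 172 and 121. No label says that both experiments were run together, and these 4 genes were set side by side after their values were seen, so this is a description.

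The 4 largest fitted falls with ZA were *bmp10* (-1.97), *bmpr1b*, *bmp5* (-1.55) and *nog* (-1.42), and none was called. *bmp10*, a ligand of the endothelial receptor ALK1, was at 5.16, 100 and 36.1 CPM in PBS and 10.3, 21.8 and 4.18 in ZA, with PBS B far above the others. *bmp5*, a ligand of perichondrium, was at 2.38, 47.6 and 49.4 CPM in PBS and 2.58, 12.6 and 19.1 in ZA, with both A libraries lowest. *nog* was at 5.99, 2.76 and 6.88 CPM in PBS and 0, 3.45 and 2.39 in ZA, where the count of 0 in ZA A allows up to 0.774 CPM. Among the largest fitted rises were *gdf2* (1.75), *ltbp2* (0.86) and *gdf1* (0.80), again uncalled. *gdf2*, another ALK1 ligand, was at 1.45, 19.1 and 2.39 CPM in PBS and 67.9, 5.48 and 1.59 in ZA, and without ZA A its fitted difference was -1.15. *gdf1* was at 32.6, 32 and 8.23 CPM in PBS and 80.5, 31.2 and 13.8 in ZA, and its difference was -0.17 without ZA A. *ltbp2* was at 20.1, 7.43 and 20.2 CPM in PBS and 33.3, 34.3 and 19.8 in ZA.

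**Figure D5:**
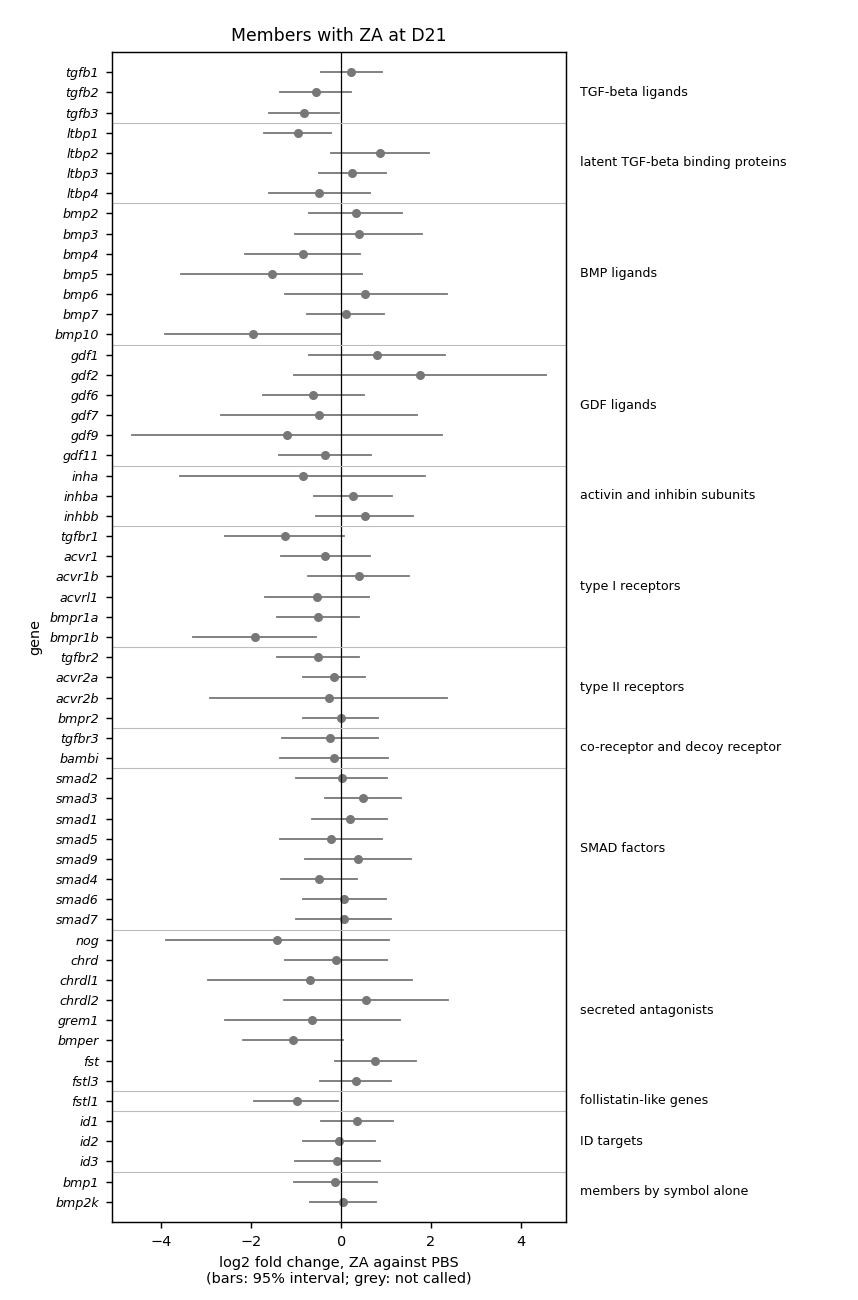
Fitted log2 fold change of ZA against PBS at day 21 for tested members, by role, with 95% intervals (all grey, since none was called). *bmpr1b*, at -1.92 with an interval of -3.29 to -0.55, lies furthest from 0 relative to its interval, and *tgfb1* lies at 0.23 (-0.45 to 0.91).

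Members called at D7 had no called difference between PBS and ZA. *tgfb1* differed by 0.23 (95% interval -0.45 to 0.91), *inhba* by 0.26 (-0.61 to 1.13), *bambi* by -0.16 (-1.35 to 1.04), *smad7* by 0.06 (-1 to 1.11) and *tgfbr2* by -0.51 (-1.42 to 0.39). The mean levels of these 5 at day 21 were closer to those of D14 and D28 than to those of D7: *inhba*, for example, had means of 20.8 CPM in PBS and 25.2 in ZA, against 128 at D7. The ID genes differed by 0.36 (*id1*, -0.44 to 1.16), -0.05 (*id2*, -0.85 to 0.76) and -0.09 (*id3*, -1.03 to 0.86). *fst* had means of 85.1 CPM in PBS and 148 in ZA, with a difference of 0.76 (-0.14 to 1.67). The BMP ligand genes *bmp2*, *bmp4* and *bmp7* had PBS means of 67.7, 16.2 and 67.2 CPM and ZA means of 84.5, 8.98 and 72.1.

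Of the other pathway genes and of the TGF-beta and BMP response lists, none was called with ZA. The medians were -0.19 for 21 TGF-beta response genes, 0.39 for 18 BMP response genes and -0.59 for the 16 processing, binding and activation genes. *ccn2*, a TGF-beta response gene, was at 626, 216 and 490 CPM in PBS and 209, 101 and 134 in ZA, with ZA below PBS but an adjusted p of 0.863. Fibroblast markers summed to 44188, 16122 and 44374 CPM in PBS A, B and C. In ZA A, B and C they summed to 21316, 8053 and 14853, so the groups overlapped, with ZA A above PBS B. Cartilage markers were lower in every ZA library than in every PBS library. The 7 osteoclast markers, without *ctsk*, summed to 18.1 to 42.4 CPM in PBS and 93.7 to 106 in ZA. Whether osteoclasts or other sorted cells carried that sum was not tested. The part of these marker sums in the differences above was not tested either. With PBS A and ZA A, the libraries whose entries go against their titles, left out together, there was again no call among the members.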

How the data were processed

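The authors sorted cells by HCR-FISH, prepared stranded, ribosome-depleted RNA libraries from fixed cells and used STAR for alignment against rAnoCar3.1.pri. The counting tool and its strand setting are not given in the sources used here, so overlapping genes (5 of 62 members overlap another span) are uncertain. The submitters' processing notes name SAMtools 1.17 and DESeq2 1.45.1. The deposited values are whole-number counts per gene, 1 file a library, and were treated as raw counts although the files are named as normalized. By the study 1 D14 library was sequenced before the other libraries of the time course. Which one is not given in the sources used here, and the fits with each D14 library left out in turn therefore include the time course without it.

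Counts were fitted with edgeR 4.0.16 (TMM, glmQLFit and glmQLFTest) in R 4.3.3 after dropping genes that had not reached 10 counts in 3 libraries of the comparison. P-values were adjusted over all genes tested. A timepoint was set against the average of both others (9 libraries), and ZA against PBS (6 libraries). Intervals are 95% from the fit. CPM used TMM effective library sizes over the 15 libraries and, with no transcript lengths at hand, were compared only within a gene. Floors are 3 counts and, like other counting limits, cover counting error only. The fit was tested on simulated data, with the same dispersion for every gene and no library set apart from its group. That test therefore does not cover single odd libraries. Figures were drawn with matplotlib 3.10.9.

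Values in every library are given for called members, and values or means for fixed pathway members and for the 4 largest rises and falls with ZA. Remaining members are given by range and count, and where another is named outside that rule it was chosen after its values were seen. Results for a few genes are not reported here. Members and gene lists were chosen with earlier results of these data known. Same-letter PBS and ZA libraries deviated together (correlations 0.32, 0.25 and 0.20), where the other pairs ran from -0.29 to 0.10. No label says that the letters pair libraries, and the main ZA test carried no block. The study reports batch effects among the replicates of the treatment experiment. In the time course same-letter libraries did not deviate together. All 62 members were matched by symbol to RefSeq, which gave gene spans. Alternatives were DESeq2 1.42.0, its size factors, no filter, a fold requirement, single reference timepoints, the block, each library left out and, chosen after seeing the data, limma 3.58.1 voom with library weights in the time course.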

Additional observations from a re-analysis of the deposited data

How the results depend on the processing

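Counts of called members are given as higher and lower. The replicate block gave 4 and 1 at D7, 0 and 1 at D14, and 2 and 0 at D28. In the time course same-letter correlations ran from -0.16 to 0.15. For ZA, where same-letter libraries deviated together, the block changed no member call. It called 0.0527% of all genes higher and 0.163% lower with ZA, where the fit without it called 0.00527% and 0.0369%. At an unadjusted p under 0.05 the block gave 8 members with ZA, where the edgeR fit without it gave 5. Of all genes the block fit called 3.55% and 2.27% at D7, 0.361% and 0.295% at D14, and 0.553% and 0.361% at D28. DESeq2 gave 12 and 4 at D7 (8.37% and 9.99% of all genes), 0 and 9 at D14 (2.25% and 2.82%), and 10 and 2 at D28 (5.32% and 3.77%), and its size factors within edgeR gave 5 lower at D14 (0.642%). Voom with library weights, chosen after seeing the data, gave 13 and 2 at D7 (8.86% and 7.31%), 2 and 16 at D14 (8.93% and 5.09%), and 5 and 1 at D28 (4.62% and 1.63%). An absolute log2 fold change over 2 as well left 1 and 1 at D7 (0.9% and 2.53% of all genes). It left 0 and 1 at D14 (0.464% and 0.159%) and 1 and 0 at D28 (0.994% and 0.399%). Against D28 alone, D7 had 4 higher and 2 lower (4.21% and 4.05%). Against D7 alone, D14 had 1 higher and 7 lower (2.22% and 2.4%), and D28 had 2 higher and 4 lower (4.05% and 4.21%). Leaving out single libraries, D7 had 1 to 16 higher and 0 to 3 lower, D14 had 0 to 0 higher and 0 to 12 lower, and D28 had 0 to 6 higher and 0 to 2 lower, while the shares of all genes ran from 1.09% to 12.3% higher at D7, 0.048% to 3.07% lower at D14 and 0.522% to 7.59% higher at D28. ZA had 0 calls among the members under every alternative run. Against the ZA rises of the text, *gdf2* was at -1.15 and *gdf1* at -0.17 without ZA A (ranges over single libraries left out -1.15 to 3.74 and -0.17 to 1.24), and *gdf2* at -1.59 with PBS A and ZA A left out. Over the 15 called pairs, 160 values under the alternatives kept the call and 80 kept the direction and lost it. Of the uncalled ZA values, 81 kept their direction and 3 reversed. DESeq2 size factors in place of TMM moved the median of all genes at D28 from 0.10 to 0.14 and at D14 from 0.03 to 0.01. Voom, which also changes the model and library weights, gave -0.06 and 0.14. The cause of these moves was not tested. Depth limits the genes near the floor: *gdf5*, *fstl5* and *fstl4*.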

Other observations

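In 3 cases a single library stood at least 5 times above the next of its group with at least 50 counts. *gdf2* was at 19.1 CPM in PBS B against 2.39 in the next PBS library, a ratio of 7.96, and at 67.9 CPM in ZA A against 5.48, a ratio of 12.4. *inhbb*, the activin B subunit gene, was at 30.9 CPM in D28 A against 2.32 in the next D28 library, a ratio of 13.3. The D7 libraries held 22.8, 19.5 and 23.8 CPM of *inhbb*, and its D7 difference was called by edgeR without D28 A and not with it. The receptor *acvr1c*, at 0.135 to 1.40 CPM at D7 and 4.67 to 11.6 CPM at D28, was in the range of 0 to 1.81 CPM in all PBS and ZA libraries. DESeq2 called it lower at D7 and higher at D28.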
